A study of Mus musculus with 10 samples.

Results

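CXC chemokines were followed in sorted microglia of mice with and without Trem2, a lipid-sensing receptor of microglia, during loss of myelin and recovery from it. The 7 genes described are Cxcl1, Cxcl2, Cxcl9, Cxcl10, Cxcl13, Cxcl14 and Cxcl16. They were chosen from the CXC ligands of the mouse with earlier results of these data known. All 7 were among the 19749 genes of the array, each with 1 probe annotated to that gene alone, and 6 were among the 10792 genes bright enough to test. The exception was Cxcl13. RNA of each array came from male mice on the C57BL/6 strain, aged 8 to 12 weeks. The Trem2-/- mice gave 5 arrays and WT mice 5. Within each genotype, 2 arrays were from mice on a diet with 0.2% cuprizone for 4 or 12 weeks, 2 from mice returned to normal food for 2 weeks after the same feeding times, and 1 from controls without cuprizone. The chelator cuprizone binds copper, and in mice it leads to death of oligodendrocytes and so to loss of myelin. The labels name neither replicate animals nor pools, and give no account of which part of Trem2 the deletion removes or which surface markers guided the sort.

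Chemokines are small secreted proteins that steer the migration of leukocytes through receptors coupled to G proteins, and the CXC family is named for the single residue between its first cysteines. Cxcl1 and Cxcl2 act on Cxcr2 and draw neutrophils, Cxcl9 and Cxcl10 are induced by interferons and draw T and NK cells through Cxcr3, and Cxcl13 draws B cells through Cxcr5. Cxcl16 is made as a membrane protein that can be shed. It binds Cxcr6 and also takes up oxidised lipoprotein, whereas Cxcl14 is a chemokine of many resting tissues whose receptor is debated. In brain injury microglia are a known source of several of these ligands.

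The arrays were alike in scale, with median intensities of 37.6 to 39.3, and levels are given as log2 of the deposited intensity. The median of all values in the table was 5.27 on that scale, and genes near it lie close to background, where differences can be compressed. Trem2 matched the genotype on every array, at 7.26 to 7.85 in the 5 Trem2-/- arrays against 10.66 to 10.81 in the 5 WT arrays (difference -3.13 ± 0.10 SE, adjusted p = 4.3e-07 by limma). The microglial receptors P2ry12 and Tmem119 were bright throughout, at 10.77 to 11.46 and 10.78 to 11.55. The submitters' sample numbers form a first run, holding both controls and all arrays titled 4 weeks, and a second run, holding all arrays titled 12 weeks, so feeding time and run cannot be told apart. The Trem2-/- array titled 12 weeks on cuprizone has a conflicting label of 4 weeks in its time field and was taken as 12 weeks. Markers of neutrophils had a median level of 4.39 to 4.87 in the 4 arrays of 12 weeks. It was 7.44 to 9.69 in the 4 arrays of 4 weeks and 7.78 to 7.90 in the controls. The controls, without cuprizone, thus lay within the range of 4 weeks. Every mean on cuprizone or in recovery joins an array of each run, whereas both controls belong to the first run. S100a8, an abundant protein of neutrophils, lay between 3.01 and 6.59 at 12 weeks and between 10.86 and 12.30 at 4 weeks. The sorted cells were bulk samples, in which fewer cells of a type and less RNA per cell cannot be told apart.

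Promoter sequences are shown for Cxcl2 and Cxcl10, which passed the test between feeding times given further on, and for Cxcl1, whose start region shares a run of bases with that of Cxcl2. All hold the recognition sequence of NF-kappaB, a factor that switches on inflammatory genes. RefSeq's table for GRCm38.p6 held the start of 6 of the 7 genes, and Cxcl16 was not among them. The 250 bases upstream of each start are printed in the direction of the gene, with matches to the NF-kappaB consensus and, for Cxcl10, to the interferon-stimulated element (GAAA, any 2 bases, GAAA) in capitals. The windows are chr5:90890995-90891244 on the plus strand for Cxcl1, chr5:90903649-90903898 on the plus strand for Cxcl2 and chr5:92348890-92349139 on the minus strand for Cxcl10.
Cxcl1: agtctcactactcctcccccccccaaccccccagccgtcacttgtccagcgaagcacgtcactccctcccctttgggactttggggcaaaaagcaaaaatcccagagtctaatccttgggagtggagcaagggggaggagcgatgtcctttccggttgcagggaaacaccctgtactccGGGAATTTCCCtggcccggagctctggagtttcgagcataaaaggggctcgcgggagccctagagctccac
Cxcl2: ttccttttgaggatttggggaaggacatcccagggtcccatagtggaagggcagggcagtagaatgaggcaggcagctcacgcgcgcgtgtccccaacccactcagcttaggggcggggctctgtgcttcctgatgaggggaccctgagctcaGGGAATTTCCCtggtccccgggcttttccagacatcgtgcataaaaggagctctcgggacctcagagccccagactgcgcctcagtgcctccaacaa
Cxcl10: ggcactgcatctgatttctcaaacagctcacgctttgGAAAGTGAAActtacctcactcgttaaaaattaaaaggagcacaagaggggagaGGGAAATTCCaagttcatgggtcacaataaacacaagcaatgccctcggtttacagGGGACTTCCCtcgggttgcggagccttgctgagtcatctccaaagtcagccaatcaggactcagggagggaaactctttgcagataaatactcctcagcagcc

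The windows of Cxcl1 and Cxcl2, both on chromosome 5, share a run of 14 bases, GGGAATTTCCCTGG. This run was picked as the longest that these 2 windows share. Of 32851 RefSeq windows of this length, only these 2 hold it (0.00609%). Counted back from each start, it begins at -71 in Cxcl1 and at -97 in Cxcl2, and it holds 2 overlapping NF-kappaB matches. Cxcl10 has 2 separate matches, GGGAAATTCC at -159 to -150 and GGGACTTCCC at -103 to -94, beside the interferon element GAAAGTGAAA at -213 to -204. The Cxcl9 window had 0 matches to the NF-kappaB consensus and 0 to the interferon element, and the Cxcl14 window had 1 interferon element. On both strands of all windows, 3.9% held the NF-kappaB consensus and 2.98% the interferon element. Looser NF-kappaB letters (GGG, any 5 bases, CC) occurred in 45.8% of windows, the gamma-activated site TTCNNNGAA in 7.02% and the TATA box TATAAA in 12.4%. Cxcl14 held the 1 gamma-activated site among the 6 windows, and Cxcl9 and Cxcl13 held 1 TATA box each. These matches describe letters in a window and are not measured binding.

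Cxcl1 and Cxcl2, the neutrophil attractants, were lowest in the controls of both genotypes. Cxcl2 measured 9.65 and 10.61 in Trem2-/- microglia at 4 and 12 weeks on cuprizone, 10.21 and 10.51 in recovery, and 8.78 in the control. WT microglia had Cxcl2 at 10.58 and 11.31 on cuprizone, 10.47 and 10.61 in recovery, and 8.92 in the control. Every fed or recovering array thus lay above both controls, the WT array at 12 weeks on cuprizone was the brightest, and on cuprizone the genotypes overlapped by a narrow margin. Cxcl1 measured 7.87 and 8.14 in Trem2-/- microglia on cuprizone, 7.97 and 7.61 in recovery and 6.92 in the control. In WT microglia Cxcl1 was 7.48 and 8.40 on cuprizone, 7.33 and 7.79 in recovery and 6.77 in the control. Its genotypes were interleaved: Trem2-/- arrays were the higher ones at 4 weeks and in controls, and the lower ones at 12 weeks.

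Cxcl9 and Cxcl10, both known as interferon-induced ligands of Cxcr3, had values of opposite sign with feeding time. Cxcl10 measured 8.98 and 10.76 in Trem2-/- microglia at 4 and 12 weeks on cuprizone, 9.15 and 11.24 in recovery and 8.23 in the control. The WT arrays gave Cxcl10 at 9.79 and 11.63 on cuprizone, 8.77 and 11.33 in recovery and 8.62 in the control. All 4 arrays of 12 weeks lay above all 4 of 4 weeks, with no overlap, and the range over the 10 arrays, 3.40, was the widest of the 7 genes. Cxcl9 was dim, at 6.12 and 5.24 in Trem2-/- microglia at 4 and 12 weeks on cuprizone, 6.10 and 5.94 in recovery and 4.67 in the control. Its WT values were 7.15 and 5.35 on cuprizone, 6.31 and 6.41 in recovery and 5.55 in the control. The WT array at 4 weeks on cuprizone stood highest for Cxcl9, and the cuprizone arrays of 12 weeks in both genotypes lay near the background median.

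Cxcl14 stood above background in WT microglia on cuprizone and near background in every Trem2-/- array. In Trem2-/- microglia it measured 5.03 and 5.22 at 4 and 12 weeks on cuprizone, 5.20 and 5.07 in recovery and 5.24 in the control. WT microglia had 7.65 and 7.03 on cuprizone, 5.62 and 6.80 in recovery and 5.27 in the control. All 5 Trem2-/- arrays lay below the table's median and the WT control lay at it, and the 4 WT arrays from cuprizone and recovery lay above it, the 4-week recovery array by a narrow margin. Among group means, WT on cuprizone (7.34 ± 0.43 SD, n = 2) and WT in recovery (6.21 ± 0.83 SD, n = 2) were followed by the other 4 groups between 5.12 and 5.27, whose order does not exceed their spread.

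Cxcl16, the shed membrane chemokine and scavenger receptor, was bright in all arrays. Trem2-/- microglia had 8.88 and 10.01 at 4 and 12 weeks on cuprizone, 9.10 and 9.87 in recovery and 9.10 in the control. The WT values were 9.94 and 10.37 on cuprizone, 9.68 and 10.54 in recovery and 9.25 in the control. At 4 weeks the Trem2-/- arrays did not exceed their control, whereas both WT arrays lay above theirs, and at 12 weeks all 4 arrays lay above both controls. Cxcl13, which draws B cells, was below the table's median on all 10 arrays (3.61 to 4.72) and was not tested, and no difference could be read from it.

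**Figure D1:**
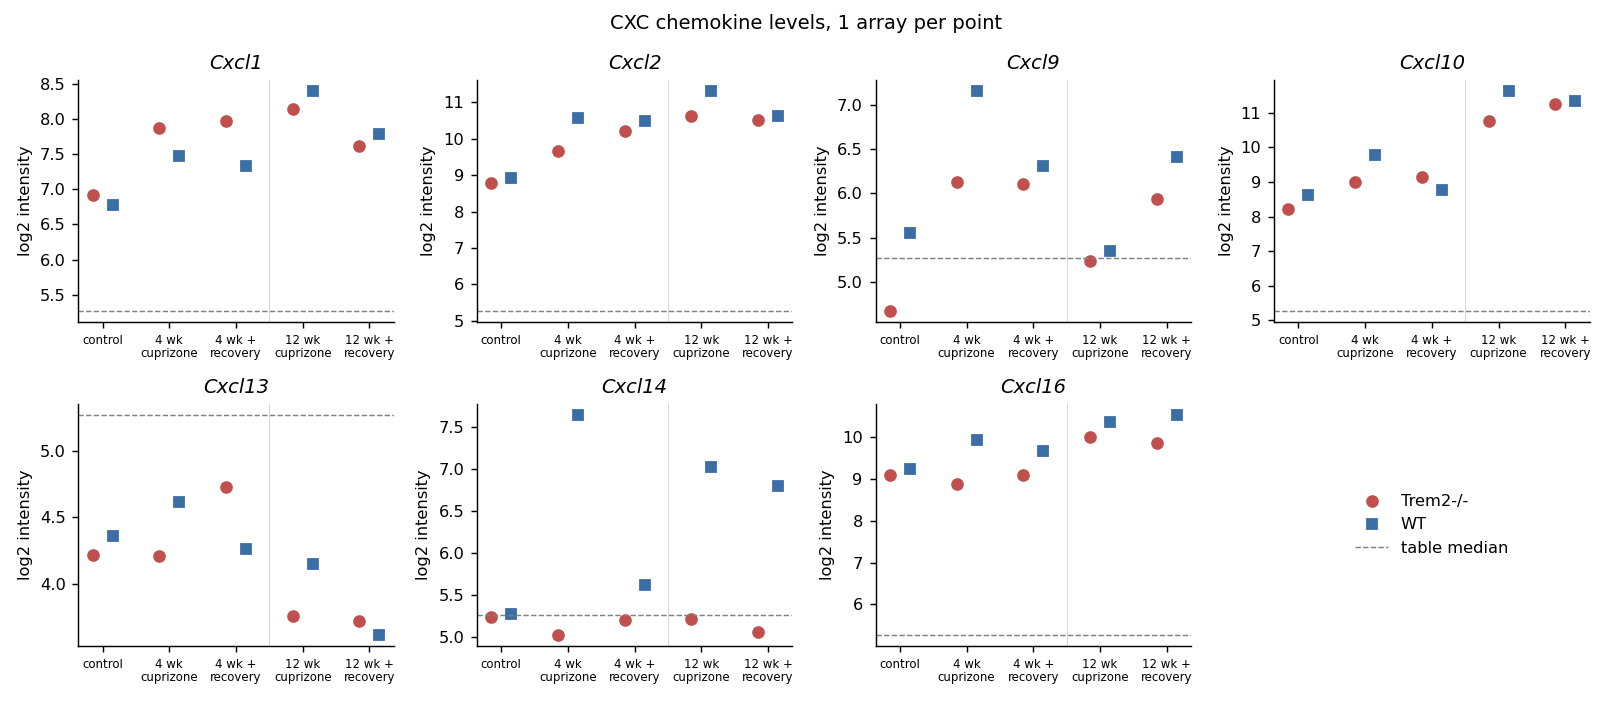
Log2 intensity (y axis) of the 7 CXC chemokines in each of 10 arrays, by diet condition (x axis), with 1 point per array, Trem2-/- and WT marked separately and the table's median as a dashed line. Cxcl14 lies just below the median in all Trem2-/- arrays and reaches 7.65 in WT, and Cxcl10 lies above 10 in the 4 arrays of 12 weeks.

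The first question was how far loss of Trem2 changed these genes in microglia exposed to the same diet. On cuprizone Cxcl14 had the largest difference of the 6 tested, -2.22 ± 0.37 (SE), and both Trem2-/- arrays lay below both WT arrays. Because the Trem2-/- arrays were near background, this is at least 4.2-fold lower, counted from the table's median. Cxcl14 entered the tests only through WT arrays, so its call and its place in the counts below are descriptions. Its adjusted p was 0.0676 in limma's model of the 6 groups, 0.00975 once titled feeding time was a block and 0.0553 when that block took the array of conflicting labels as 4 weeks. Cxcl10 measured -0.84 ± 1.04, Cxcl2 -0.81 ± 0.35, Cxcl16 -0.71 ± 0.45, Cxcl9 -0.57 ± 0.53 and Cxcl1 0.07 ± 0.32. With titled feeding time as a block the SE of Cxcl10 was 0.20, and its adjusted p from limma was 0.103. The value of Cxcl10 turned to 0.24 in the block with the conflicting array as 4 weeks. Of the 6 genes 0 passed, against 0.334% of all genes tested, and 2 had an unadjusted p under 0.05, against 4.47% of all genes. With the block 1 passed, against 1.42% of all genes, and 0 with the conflicting array as 4 weeks. Both Trem2-/- arrays lay below both WT arrays on cuprizone for 1 of 6, against 15.4% of all genes, and the median difference of the 6 was -0.76. The adjusted p of Cxcl14 spanned 0.00975 to 0.436 over all alternatives, with the difference between -2.52 and -1.81: it was 0.0147 without either WT recovery array and 0.177 to 0.436 without an array on cuprizone.

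In recovery the same direction held for Cxcl14, -1.07 ± 0.37, with a gap of -0.41 at 4 weeks and of -1.73 at 12 weeks. Cxcl16 measured -0.63 ± 0.45, Cxcl9 -0.34 ± 0.53, Cxcl2 -0.18 ± 0.35, Cxcl10 0.14 ± 1.04 and Cxcl1 0.23 ± 0.32. Here 0 of 6 passed limma's test (0.0278% of all genes), and Cxcl14 was the 1 gene with an unadjusted p under 0.05 (1.92% of all genes). Both Trem2-/- arrays lay below both WT arrays for Cxcl9 and Cxcl14 (2 of 6, against 12.4% of all genes). The controls, with 1 array per genotype and no test, differed by -0.88 at Cxcl9, -0.39 at Cxcl10 and -0.15 to 0.15 at the other 4 tested genes.

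Over the 5 matched conditions, 4 genes were lower in Trem2-/- microglia in 5 of 5: Cxcl2, Cxcl9, Cxcl14 and Cxcl16 (4 of 6, against 6.10% of all genes). Their mean differences were -0.42 ± 0.13 for Cxcl2, -0.54 ± 0.14 for Cxcl9, -1.32 ± 0.31 for Cxcl14 and -0.56 ± 0.13 for Cxcl16. The adjusted p-values from limma were 0.277, 0.199, 0.153 and 0.135 in that order, and 0 of 6 passed, against 0.259% of all genes, with 4 at an unadjusted p under 0.05, against 10.8% of all genes. Cxcl10 was lower in 4 of 5 conditions (-0.35 ± 0.17, adjusted p = 0.486) and Cxcl1 in 2 of 5 (0.15 ± 0.14, adjusted p = 0.744). The 95% interval for Cxcl1 ran from -0.15 to 0.45. Without the control pair Cxcl14 passed, at -1.64 (adjusted p = 0.0291), and without any one of the other 4 pairs its adjusted p was 0.134 to 0.479.

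**Figure D2:**
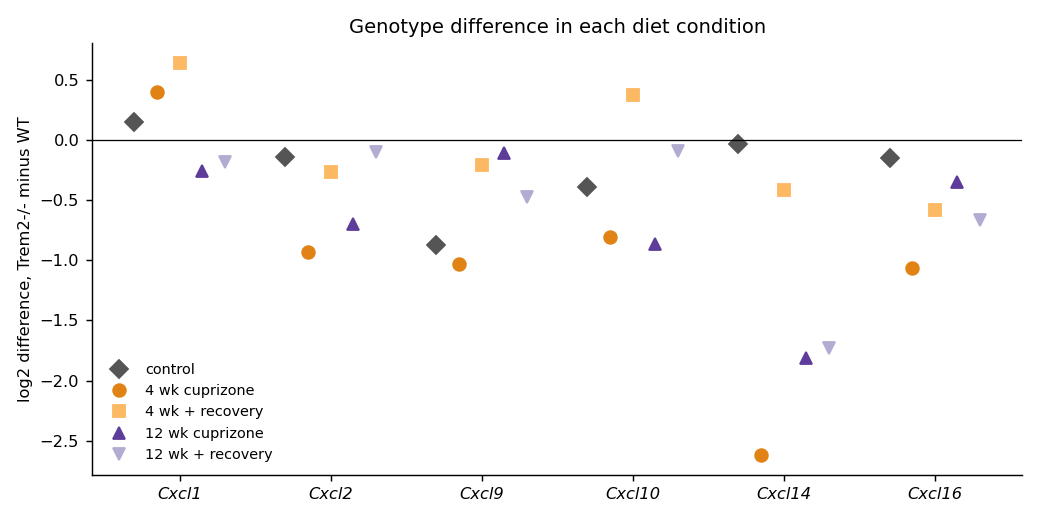
Trem2-/- minus WT difference of log2 intensity (y axis) for each tested chemokine in each of the 5 diet conditions, 1 point per pair of arrays. Cxcl14 reaches -2.62 at 4 weeks on cuprizone and is -0.031 between controls, whereas Cxcl1 lies on both sides of 0.

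The second question was how each genotype responded to cuprizone. In WT microglia all 6 genes had higher means on cuprizone than in the single control array: Cxcl10 by 2.09 ± 1.28, Cxcl14 by 2.07 ± 0.46, Cxcl2 by 2.02 ± 0.43, Cxcl1 by 1.17 ± 0.40, Cxcl16 by 0.90 ± 0.55 and Cxcl9 by 0.70 ± 0.64. Of these 0 passed limma's test (0.148% of all genes did), 3 had an unadjusted p under 0.05 (4.36% of all genes), and both arrays lay above the control for 5 of 6 (34.1% of all genes). With the feeding-time block Cxcl2 passed, at 1.76 and an adjusted p of 0.0155, against 0.973% of all genes, but not with the conflicting array as 4 weeks (0.131). Cxcl10 was 1.06 and Cxcl16 0.50 with the block. In Trem2-/- microglia the values against their control were 1.64 ± 1.28 for Cxcl10, 1.35 ± 0.43 for Cxcl2, 1.09 ± 0.40 for Cxcl1, 1.01 ± 0.64 for Cxcl9, 0.34 ± 0.55 for Cxcl16 and -0.12 ± 0.46 for Cxcl14. With the block Cxcl10 was 0.61 and Cxcl16 turned to -0.055. Again 0 of 6 passed (0.00% of all genes), 2 had an unadjusted p under 0.05 (0.927% of all genes), and both arrays lay above the control for 4 of 6 (31.3% of all genes). The control's own spread was not measured in either genotype. Border macrophage markers had medians of 7.41 and 6.94 on cuprizone against 5.83 in the Trem2-/- control. The WT medians were 8.04 and 6.15 against 6.17 in the control. Of these markers Ms4a7 passed limma's test in WT microglia without the block (2.17, adjusted p = 0.0485). With the block Ms4a7, Clec4n, Lyve1 and Mrc1 passed in WT microglia. In Trem2-/- microglia Cd209f, Cd163, F13a1, Cbr2, Clec4n and Mrc1 passed with the block, among 13 called of all genes tested. The rest of the list did not pass. With the conflicting array as 4 weeks in the block, no gene was called for Trem2-/- cuprizone against control. The part of border macrophages in the chemokine values was not tested.

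Tested as a difference between responses, the cuprizone response of Cxcl14 was smaller in Trem2-/- than in WT microglia by -2.19 ± 0.64 (unadjusted p = 0.00904, adjusted p = 1 by limma), which did not pass. Cxcl2 had -0.68 ± 0.61, Cxcl16 -0.56 ± 0.77, Cxcl10 -0.45 ± 1.81, Cxcl1 -0.08 ± 0.56 and Cxcl9 0.31 ± 0.91. In this comparison 0 of 6 passed against 0.00927% of all genes, and Cxcl14 was the 1 gene at an unadjusted p under 0.05 (1.47% of all genes). The intervals were wide: that of Cxcl10 ran from -4.59 to 3.69. In this model the spread within a group includes the difference between feeding times. With titled feeding time as a block Cxcl10 had -0.45 ± 0.35, which did not pass.

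After 2 weeks back on normal food, most of these genes had levels above control. Recovery against control gave 1.58 ± 0.43 for Cxcl2 in Trem2-/- microglia and 1.62 ± 0.43 in WT microglia, and both recovery arrays lay above the control for 4 of 6 genes in Trem2-/- (30.2% of all genes) and 6 of 6 in WT (32.1% of all genes). In each genotype 0 of 6 passed limma's test (0.00% of all genes), with 1 gene, Cxcl2, at an unadjusted p under 0.05 (1.4% of all genes in Trem2-/- and 2.24% in WT). With titled feeding time as a block, Cxcl10 was 0.93 above control in Trem2-/- and 0.40 in WT microglia, against 1.96 and 1.43 without the block. Cxcl16 was -0.015 in Trem2-/- and 0.46 in WT microglia with the block, against 0.38 and 0.86 without it. Against cuprizone itself, Cxcl14 in WT microglia was lower in recovery by -1.13 ± 0.37, of which -2.03 was at 4 weeks and -0.24 at 12 weeks. In Trem2-/- microglia, where Cxcl14 was near background throughout, that value was 0.012 ± 0.37. Cxcl10 measured 0.32 ± 1.04 in Trem2-/- and -0.66 ± 1.04 in WT microglia. The Trem2-/- value turned to -0.76 in the block with the conflicting array as 4 weeks. Between recovery and cuprizone 0 of 6 passed in either genotype (0.00% of all genes), with 0 in Trem2-/- and 1 in WT at an unadjusted p under 0.05 (0.593% and 2.73% of all genes).

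The third question was how 12 weeks of feeding compared with 4 weeks, over 4 pairs of arrays matched for genotype and phase. Cxcl10 rose by 2.07 ± 0.14 on the log2 scale (4.19-fold, adjusted p = 8.73e-05 by limma), Cxcl16 by 0.80 ± 0.13 (adjusted p = 0.004) and Cxcl2 by 0.53 ± 0.15 (adjusted p = 0.0324), each higher in 4 of 4 pairs. Thus 3 of 6 passed, all upward, against 20.3% of all genes called and 8.22% called upward, and 4 had an unadjusted p under 0.05, against 36.6%. Higher values in 4 of 4 pairs were found for 3 of 6 and 17.3% of all genes, and complete separation for Cxcl10 alone (1 of 6, against 9.49%). Cxcl9 measured -0.69 ± 0.26 (adjusted p = 0.0879), a value made mostly by the WT pair on cuprizone at -1.81 and the Trem2-/- pair at -0.89. Cxcl1 had 0.32 ± 0.18 and Cxcl14 0.16 ± 0.24. Counting the array of conflicting labels as 4 weeks left Cxcl10 with its call (adjusted p = 0.0404) and took it from Cxcl16 (0.143) and Cxcl2 (0.329). Cxcl2 also lost it without either cuprizone pair or without the Trem2-/- recovery pair (adjusted p from 0.0642 to 0.123), whereas Cxcl9 passed without the WT recovery pair, at -0.95 (adjusted p = 0.028).

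Within each genotype Cxcl10 rose with feeding time, by 1.94 ± 0.21 in Trem2-/- microglia (adjusted p = 0.00386) and by 2.20 ± 0.21 in WT microglia (adjusted p = 0.00251 by limma). Cxcl16 rose in Trem2-/- microglia by 0.95 ± 0.18 (adjusted p = 0.028) and measured 0.64 ± 0.18 in WT microglia (adjusted p = 0.0831). In all 2 of 6 passed in Trem2-/- microglia (4.95% of all genes) and 1 of 6 in WT (4.18%). The genotypes differed in this change for 0 of 6 genes and 0.00% of all genes. Cxcl1 came nearest, at -0.74 ± 0.29 (unadjusted p = 0.0329, adjusted p = 0.999): between 12 and 4 weeks it was -0.05 ± 0.20 in Trem2-/- and 0.69 ± 0.20 in WT microglia.

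**Figure D3:**
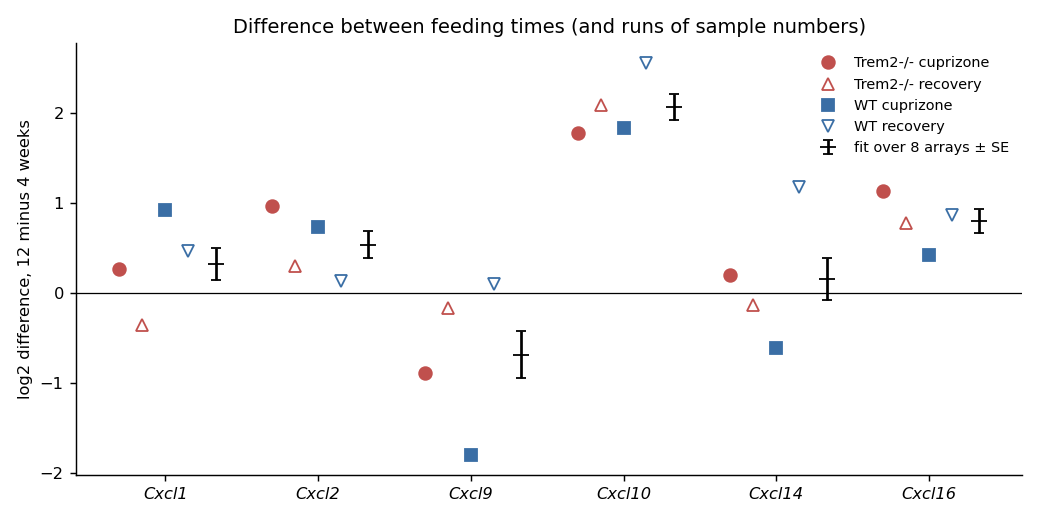
Difference of log2 intensity between 12 and 4 weeks (y axis) for the 6 tested chemokines, 1 point for each of the 4 pairs of genotype and phase. The 4 points of Cxcl10 lie between 1.78 and 2.56, and those of Cxcl9 between -1.81 and 0.10.

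Markers of other cells moved with feeding time as well. Between 12 and 4 weeks, 10 of 10 tested neutrophil markers fell (median -3.62), as did 5 of 5 monocyte markers (median -1.64) and 9 of 11 border macrophage markers (median -1.15), against 12.1% of all genes called lower. Ngp, Ltf, Lcn2, Retnlg, Elane, Mpo, Chil3 and Clec10a exceeded the table's median on no array of 12 weeks. They entered the tests only through arrays of 4 weeks or controls, so their calls and their place in these counts are descriptions. Of 11 microglial markers 4 fell (median -0.17), and the median over all genes was -0.037. Monocyte markers had a median level of 4.47 to 4.92 at 12 weeks, 5.05 to 6.17 at 4 weeks and 5.29 to 5.35 in controls. Border macrophage markers had 6.15 to 6.94 at 12 weeks, 7.41 to 8.04 at 4 weeks and 5.83 to 6.17 in controls. Neutrophil markers in controls, at 7.78 to 7.90, lay within their range at 4 weeks. Ly6g, which defines mature neutrophils, was below the table's median on all 10 arrays (3.49 to 4.86). These lists fell while Cxcl2, Cxcl10 and Cxcl16 rose, and the part of other cells or of the run in the chemokine values was not tested. Between genotypes on cuprizone, 0 of 11 border macrophage, 0 of 10 neutrophil and 0 of 5 monocyte markers passed. With the feeding-time block the border macrophage marker Ms4a7 (-1.16, adjusted p = 0.0181) and the monocyte marker Fn1 (-1.92, adjusted p = 0.0196) passed limma's test, and 0 of 10 neutrophil markers, against 1.42% of all genes. The other border macrophage markers had values of both signs, from -0.38 (Clec4n) to 0.38 (Cd209f). So did the other monocyte markers, from -0.57 (Chil3) to 0.49 (Ccr2). Of the 2 tested endothelial markers Flt1 passed limma's test without the block (-1.64, adjusted p = 0.029). It is a dim gene that exceeded the table's median only on WT arrays, so this call is a description. The other, Pecam1, had the opposite sign on cuprizone, 0.68 ± 0.20, and did not pass. Over the 5 matched conditions Pecam1 passed, higher in Trem2-/- microglia (0.63, adjusted p = 0.0236 by limma). Their part in the chemokine values was not tested.

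Of 8 CXC receptors, Cxcr3, Cxcr4 and Cxcr6 were bright enough to test, and Cxcr4, the receptor of Cxcl12, differed most between genotypes. It measured 7.87 and 7.28 in Trem2-/- microglia at 4 and 12 weeks on cuprizone, 7.40 and 7.51 in recovery and 6.92 in the control. WT microglia had 9.70 and 10.56 on cuprizone, 8.57 and 9.37 in recovery and 7.56 in the control, without overlap between genotypes on cuprizone or in recovery. The difference on cuprizone, -2.55 ± 0.36, passed limma's test (adjusted p = 0.0329) but not after quantile normalization (0.0596) or without any one array on cuprizone (0.0596 to 0.321) or either Trem2-/- recovery array (0.0702). Cxcr6, the receptor of Cxcl16, was dim, at 4.71 to 5.54 on the arrays of 12 weeks, around the table's median. At 4 weeks it lay at 5.95 to 6.56. It fell between 12 and 4 weeks by 1.18 on the log2 scale (adjusted p = 0.00514), opposite in sign to its ligand. Which cells carried it was not tested. Cxcr3 stayed between 5.60 and 6.16. Cxcr2, the receptor of Cxcl1 and Cxcl2, and Cxcr5, that of Cxcl13, did not reach the level for testing.

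Of 8 further CXC ligands 4 were tested. Pf4, a chemokine of platelets and of macrophages at brain borders, was bright and fell between 12 and 4 weeks by 1.05 on the log2 scale (adjusted p = 0.00047). With titled feeding time as a block, limma also called Pf4 above control on cuprizone. The values were 1.70 in Trem2-/- (adjusted p = 0.0332) and 1.21 in WT microglia (0.0193). With the conflicting array as 4 weeks in the block, Pf4 passed on cuprizone in neither genotype. In recovery with titled feeding time as a block Pf4 passed in Trem2-/- (1.63, adjusted p = 0.0273) but not in WT microglia (0.90, 0.212). Cxcl3, a relative of Cxcl1 and Cxcl2, rose by 0.62 (adjusted p = 0.00488) and Cxcl11, the third ligand of Cxcr3, by 0.87 (adjusted p = 0.0135), both dim at 4.74 to 5.83 and 4.07 to 5.47. Both exceeded the table's median only on arrays of 12 weeks, the group in which they were higher, so these calls are descriptions. Without the WT pair on cuprizone the adjusted p of Cxcl11 was 0.0608. With the array of conflicting labels counted as 4 weeks, Cxcl11 kept its call, and Pf4 (adjusted p = 0.0581), Cxcl3 (0.0922) and the receptor Cxcr6 (0.158) did not. Between genotypes on cuprizone the 4 ligands differed by -0.32 to -0.04 and 0 passed.

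**Figure D4:**
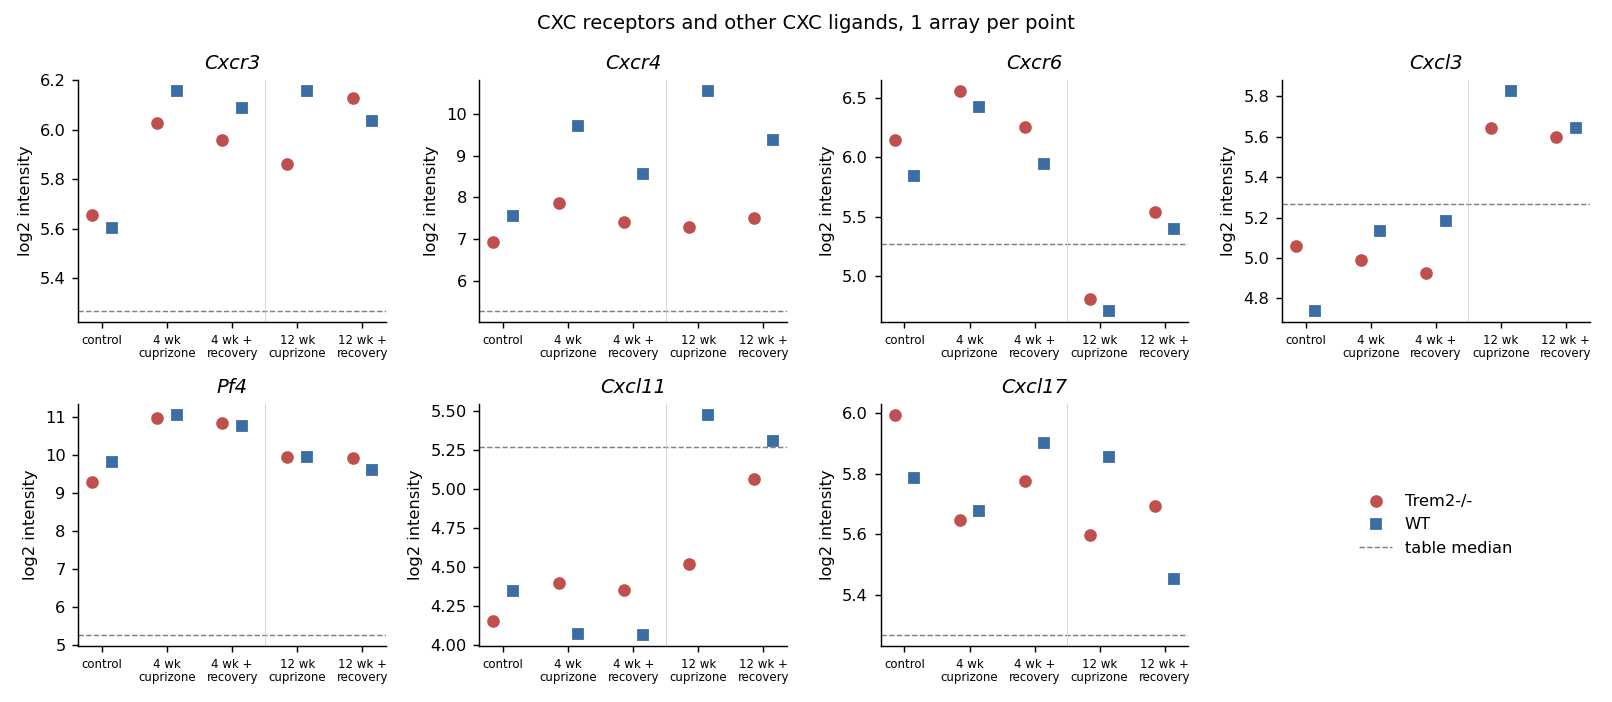
Log2 intensity (y axis) of the 3 tested CXC receptors and 4 further tested CXC ligands in the 10 arrays, by diet condition (x axis) and genotype, 1 point per array, with the table's median dashed. Cxcr4 separates the genotypes on cuprizone, with Trem2-/- arrays at 7.28 and 7.87 and WT arrays at 9.70 and 10.56.

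Among 5 enzymes that process CXC ligands, Mmp12, the macrophage elastase, differed most between genotypes. It measured 4.84 and 5.02 in Trem2-/- microglia on cuprizone and 5.16 in their control, all below the table's median, against 8.90 and 8.89 in WT microglia on cuprizone and 4.97 in their control. The genotype difference on cuprizone was -3.96 ± 0.41 (adjusted p = 0.00727), at least 12.3-fold lower counted from the table's median. Its adjusted p was 0.0605 to 0.094 without any one array on cuprizone. The rise over control in WT microglia, 3.93 ± 0.51, passed (adjusted p = 0.0356), except without any one array on cuprizone (0.088 to 0.192). In recovery Mmp12 was 5.34 and 6.61 in Trem2-/- microglia and 7.25 and 8.10 in WT microglia. Adam10 and Adam17, the proteases that shed Cxcl16, differed between genotypes on cuprizone by 0.12 ± 0.19 and -0.0099 ± 0.19, and neither passed.

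Of 15 tested genes of the NF-kappaB pathway, 9 rose between 12 and 4 weeks and 0 fell, with a median of 0.39, beside 8.22% of all genes called upward and a median of -0.037. The largest were Tnf (1.02), Icam1 (0.78), Nfkb2 (0.73) and Relb (0.67). Between genotypes on cuprizone 0 of 15 passed, and the cytokine Il1b had the largest difference, -1.56 ± 0.32 (adjusted p = 0.146, and 0.000969 with the feeding-time block). Of 15 interferon regulators and targets tested, Ifit1, an antiviral protein, rose between 12 and 4 weeks by 1.39 (adjusted p = 0.00179), Ifngr1, a chain of the interferon-gamma receptor, fell by 0.47 (adjusted p = 0.015), and the median was -0.08. With the conflicting array counted as 4 weeks, Tnf and Ifit1 kept their calls, and Icam1 (adjusted p = 0.104), Nfkb2 (0.0681), Relb (0.0588) and Ifngr1 (0.0877) did not. Ifngr1 also lost its call without the Trem2-/- recovery pair (0.0642) or the WT recovery pair (0.0535). Between genotypes on cuprizone 0 of these 15 passed, and the largest differences were Ifit1 at -1.25 ± 0.75, Oas1a at -1.19 ± 0.29 and Usp18 at -1.08 ± 0.31.

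The genes whose levels ran most alike to each chemokine over the 10 arrays were found by Pearson correlation among all genes tested. These coefficients are descriptions over arrays that share genotype, diet and run. For Cxcl2 they were Vcam1 (r = 0.99), an adhesion molecule, Cd14 (0.98), a co-receptor for bacterial lipopolysaccharide, and Ptpn12 (0.96). Cxcl14 ran with Ephx1 (0.98), an epoxide hydrolase, Postn (0.97), a matrix protein, and Atp6v0d2 (0.96), a subunit of the proton pump of lysosomes. For Cxcl10 the closest were Pmaip1 (0.98), Slfn2 (0.97) and Gla (0.97), and after the mean of each run was subtracted, the interferon-induced genes Ifitm3 (0.98) and Ifi27l2a (0.97) with Tecpr1 (0.96). Cxcl16 ran with Selenon (0.99), Phlda1 (0.97) and Atp5md (0.97), Cxcl1 with Ptdss1 (0.90), Rad21 (0.89) and Ndrg4 (0.89), and Cxcl9 with Arfip1 (0.89), Rwdd1 (0.89) and Prune2 (0.88). Among the chemokines, Cxcl10 and Cxcl16 ran closest (0.86), and once run means were subtracted Cxcl14 and Cxcl16 did (0.88).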

How the data were processed

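RNA of sorted microglia was amplified from 2 ng and hybridised to 10 one-colour arrays, per the labels' protocols. The authors deposited 1 linear intensity per probe and array. Probe summarisation and normalisation are not stated: not given in the sources used here. Log2 of the deposited intensity was taken with no further scaling. Of 24567 probes, 21259 named 1 gene in the platform annotation, 1274 several and 2034 none, and 21182 matched RefSeq GRCm38.p6. The brightest probe stood for each of 888 genes with several. Genes above the table's median (5.27) on at least 2 arrays were tested (10792). Cuprizone and recovery groups held 1 array of each feeding time and controls 1 array, so p-values measure only the spread between these samples, which may be technical, and a lone control was taken to share the spread of the rest. With no known replicates, the number of arrays limits the precision.

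Tests used limma 3.58.1 in R 4.3.3 with Benjamini-Hochberg adjustment over all genes (threshold 0.05): a model of 6 group means, a genotype model with condition as a block, and 12 against 4 weeks over 8 arrays with group as a block. The fits were tested on simulated data. Alternatives were titled feeding time as a block, the conflicting time label, mean over probes, no filter, median and quantile scaling, an offset of 16 and leaving out each array.

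The members and lists were chosen with earlier results of these data known. All members are named. From each other list, up to 4 passing genes are named by size, otherwise up to 3 with the largest difference, and CXC ligands and receptors with their levels. Adam10, Adam17, P2ry12, Tmem119, S100a8, Ly6g, Ms4a7 and Fn1 were added after values were seen. So were the calls of Pf4 and of border macrophage markers against control. Likeness names the 3 genes with the highest correlation. The NF-kappaB consensus was added to the promoter motifs after the data were seen.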

Additional observations from a re-analysis of the deposited data

Results flagged for a closer look

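Cxcl10 had differences of opposite sign between recovery and cuprizone in the genotypes, neither of which passed a test. Recovery minus cuprizone was 0.16 at 4 weeks and 0.48 at 12 weeks in Trem2-/- microglia, and -1.02 at 4 weeks and -0.30 at 12 weeks in WT microglia. Both Trem2-/- arrays were thus higher in recovery and both WT arrays lower. The 12-week Trem2-/- pair holds the array of conflicting labels: with it counted as 4 weeks in the feeding-time block, the Trem2-/- value was -0.76, so the direction turned. The difference between genotypes was not tested.

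Cxcl14 in recovery lay below the control in both Trem2-/- arrays, by -0.0375 at 4 weeks and -0.17 at 12 weeks, and above it in both WT arrays, by 0.35 at 4 weeks and 1.53 at 12 weeks. The Trem2-/- values lie below the table's median, and each genotype has 1 control array. The difference between genotypes was not tested.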

How the results depend on the processing

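The 6 tested chemokines kept the sign of their value in 497 of 508 values under other settings and in 614 of 660 with an array left out. With titled feeding time as a block, chemokines called numbered 1 for Trem2-/- against WT on cuprizone (Cxcl14) and 1 for WT cuprizone against control (Cxcl2), against 0 each without it. Over all genes that block gave 153 calls on cuprizone against 36 without it, 10 in recovery (3 without), 105 for WT cuprizone against control (16), 13 for Trem2-/- cuprizone against control (0), 7 for WT recovery against cuprizone (0), 19 for Trem2-/- recovery against control (0), 19 for WT recovery against control (0) and 9 for the difference in response (1). With the conflicting array as 4 weeks in the block, 0 chemokines were called in either comparison. Calls over all genes were then 55 on cuprizone, 8 in recovery, 37 for WT cuprizone, 0 for Trem2-/- cuprizone, 2 for Trem2-/- recovery and 1 for WT recovery. Counting that array as 4 weeks gave 1 chemokine (3 otherwise) and 186 genes (2194 otherwise) between 12 and 4 weeks. Genotype calls over 5 conditions were 28, against 44 without the filter and 54 with the offset. The difference in response had 0 calls after subtraction of array medians or with the offset. The cause of these shifts was not tested.

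With an array left out, chemokine calls ranged from 0 to 1 on cuprizone, 0 to 1 over 5 conditions and 2 to 4 between 12 and 4 weeks. Gene calls ranged from 0 to 42 on cuprizone, 0 to 4 in recovery, 8 to 103 over 5 conditions, 2 to 16 for WT cuprizone against control, 0 to 1 for the difference in response, 1064 to 1621 between 12 and 4 weeks and 0 to 1 for its genotype difference. In the paired models, leaving out an array removes its pair. The labels number no replicates, so arrays were matched by condition or feeding time only. Differences of Cxcl9 and Cxcl14 lie near background in part of the arrays, which limits their size.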
